A study of Mus musculus with 26 samples.

Results

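The genes Bax, Bak1, Bcl2, Bcl2l1, Mcl1, Bcl2l11, Bbc3, Pmaip1 and Casp9 carry the central steps of apoptosis through the mitochondria. They were taken by gene symbol from a table of read counts on 37991 mouse genes, and each of the 9 symbols belonged to 1 Ensembl identifier. No measured value entered the rule that names them, but they were chosen with earlier results of these data known. They were followed in 5 experiments, in each of which mice given an inhibitor of a chromatin enzyme were compared with their own saline controls.

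In apoptosis through the mitochondria, Bax and Bak1 open the outer membrane of the organelle, and Bcl2, Bcl2l1 (Bcl-xL) and Mcl1 hold them in check. The BH3-only genes Bcl2l11 (Bim), Bbc3 (Puma) and Pmaip1 (Noxa) are switched on by stress and block the protective proteins. Cytochrome c that leaks out then activates caspase 9, the initiator caspase encoded by Casp9, and retinal neurons are known to lower parts of this machinery as they mature.

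All mice carried the rd10 mutation of the rod gene Pde6b, which causes the loss of rods, so no control had a healthy retina. Whole retinas of mice labelled B6.CXB1-Pde6brd10/Jrd10, a label whose last number rises over some of the libraries, were collected at PN24 after intraperitoneal injections from PN9 of the HDAC1 inhibitor Romidepsin at 0.2 mg/kg (3 libraries, 3 controls), the G9a/GLP inhibitor UNC0642 at 7.5 mg/kg (2 libraries, 2 controls), the EZH2 inhibitor DZNep at 1 to 1.5 mg/kg (2 libraries, 4 controls) or the EZH2 inhibitor UNC1999 at 15 mg/kg (3 libraries, 3 controls). Rods were sorted by GFP from a cross of rd10 with the Nrl-EGFP transgene, in which the rod promoter Nrl drives the marker, after saline (2 libraries) or the LSD1 inhibitor GSK2879552 at 4.2 mg/kg (2 libraries) over the same days. UNC1999 was given in a carrier of DMSO, PEG300 and Tween-80, while the study names saline for the controls of its RNA-seq and diluent for those of its sections, so it is not clear whether these controls received the carrier. The labels call the libraries biological replicates and do not say how many animals went into each, so that p-values measure the spread between libraries. A treatment was given in 1 experiment only, with its own controls. A difference between treatments therefore cannot be told apart from what else differed between experiments.

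Retina libraries held 13732959 to 36354094 counted reads and libraries of sorted rods 7289460 to 19864491. The 11 rod markers summed to 9056 to 37460 CPM (read counts scaled to 1 common library size) in control retinas and to 54690 to 83740 CPM in the sorted control rods. The 6 Müller glia markers summed to 2200 to 5480 CPM in the former and to 100.6 to 151.8 CPM in the latter, and Rpe65 and Ttr, 2 markers of the pigment epithelium, had at most 3 counts in any rod library. Of the 11 rod markers, 11 lay higher in every treated than in every control library after DZNep, 9 after UNC1999, 6 after UNC0642 and 7 after Romidepsin, and edgeR called all 11 after DZNep and none in the other 3 experiments. In whole retinas, fewer cells of a type and less RNA per cell cannot be told apart. All CPM are scaled by edgeR's TMM factors within an experiment unless another scale is named.

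The promoters of 4 of the genes are shown because the results turn on them. Bbc3 and Mcl1 had the smallest p-values of the 9 after Romidepsin, Bcl2l11 is the BH3-only gene that was higher in sorted rods, and Bak1 is the gene that had at most 6 counts in any rod library. RefSeq sequences (build GRCm38.p6, which differs from the build of the counts) gave 13 windows of 250 bases before to 50 after a start site for 8 of the 9 genes; Pmaip1 had none. Capitals mark a FOXO word (GTAAACA, on either strand) in Bbc3 and Bcl2l11 and a GC box (GGGCGG, on either strand) in Mcl1. The Bbc3 window is chr7:16310011-16310310 on the plus strand, that of Bcl2l11 chr2:128125788-128126087 on the plus strand, that of Mcl1 chr3:95658471-95658770 on the plus strand and that of Bak1 chr17:27028578-27028877 on the minus strand.
Bbc3: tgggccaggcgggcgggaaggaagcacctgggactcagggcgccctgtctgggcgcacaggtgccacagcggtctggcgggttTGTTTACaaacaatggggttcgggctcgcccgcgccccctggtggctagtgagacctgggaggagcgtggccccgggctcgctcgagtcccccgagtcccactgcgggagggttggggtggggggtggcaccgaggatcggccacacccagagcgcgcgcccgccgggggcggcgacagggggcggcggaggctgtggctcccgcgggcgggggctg
Bcl2l11: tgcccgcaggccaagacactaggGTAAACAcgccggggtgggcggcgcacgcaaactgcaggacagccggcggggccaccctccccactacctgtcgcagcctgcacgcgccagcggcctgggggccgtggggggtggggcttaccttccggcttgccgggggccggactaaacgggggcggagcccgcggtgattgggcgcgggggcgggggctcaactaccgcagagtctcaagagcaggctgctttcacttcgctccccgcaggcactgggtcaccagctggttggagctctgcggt
Mcl1: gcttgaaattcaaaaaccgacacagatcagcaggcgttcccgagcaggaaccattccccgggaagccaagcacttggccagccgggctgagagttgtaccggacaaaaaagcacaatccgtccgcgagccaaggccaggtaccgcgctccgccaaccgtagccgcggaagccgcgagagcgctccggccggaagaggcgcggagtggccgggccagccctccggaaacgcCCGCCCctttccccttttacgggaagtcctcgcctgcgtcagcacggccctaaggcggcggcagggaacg
Bak1: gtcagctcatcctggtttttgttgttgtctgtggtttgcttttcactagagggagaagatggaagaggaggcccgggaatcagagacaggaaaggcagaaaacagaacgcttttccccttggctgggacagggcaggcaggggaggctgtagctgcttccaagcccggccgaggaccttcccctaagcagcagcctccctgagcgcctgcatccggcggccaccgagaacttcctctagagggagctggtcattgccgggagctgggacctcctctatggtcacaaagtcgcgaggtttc

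Counted from the start site, the FOXO word began at position −167 in this Bbc3 window and at −227 in that of Bcl2l11. Of 32851 RefSeq windows 3.65% held it. Bbc3 had 3 windows and Bcl2l11 had 2, and the windows of these genes not shown here held no FOXO word. The GC box of Mcl1 began at position −20, and 35.7% of the windows held that word. Mcl1 held it 1 time, while every window of Bax, Bcl2, Bcl2l11, Bbc3 and Casp9 held it 3 to 7 times. The windows of Bbc3 and Bcl2l11 shown above held 4 and 3 GC boxes, which are not in capitals. The other words, also searched on both strands, were the AP-1 word TGANTCA, which 7.81% of the windows held, and the CRE word TGACGTCA, which 1.79% held. The E-box word CACGTG was in 7.15% of the windows. The word TATAAA of the TATA box was in 13.6%. None of the 6 words contains another. None of the 6 words was in the Bak1 window or in any of the 3 windows of Bcl2l1. No window of the 8 genes held a CRE, an AP-1 or a TATA word, and 1 window each of Bax and Bbc3 held an E-box. These matches describe letters and not bound sites.

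In the untreated rd10 retina, Mcl1, Bax and Bcl2l1 were the most abundant of the 9 genes. Pmaip1 was the least abundant, with 10 to 40 counts in a control library. Levels of different genes were compared as CPM per kilobase of exon over the 12 control retinas, on 1 scale for all retina libraries. Mcl1 had a median of 34.9 CPM per kb (29.9 to 46.9), Bax 25.4 (21.2 to 32.2) and Bcl2l1 23.5 (21.7 to 27.3). Bak1 at 8.71 CPM per kb (7.51 to 15.5) and Casp9 at 8.67 (7.90 to 9.26) came next. Bbc3 had 3.94 CPM per kb (2.76 to 4.64), Bcl2 2.65 (2.13 to 2.93), Bcl2l11 2.48 (2.21 to 2.80) and Pmaip1 0.398 (0.253 to 0.627). Mcl1 was above Bax in all 12 libraries although their ranges overlapped, and Bbc3 was likewise above Bcl2 in 12. Neighbours that did not differ beyond their spread were Bax and Bcl2l1 (Bax above in 9 of 12 libraries), Bak1 and Casp9 (7 of 12), and Bcl2 and Bcl2l11 (7 of 12). The ranges were apart between Bcl2l1 and Bak1, between Casp9 and Bbc3 and between Bcl2l11 and Pmaip1. The order depends on the length used: per kb of the longest transcript Bcl2l1 had 46.0 CPM and stood above Mcl1, and Bcl2l11 had 3.95 CPM.

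**Figure D1:**
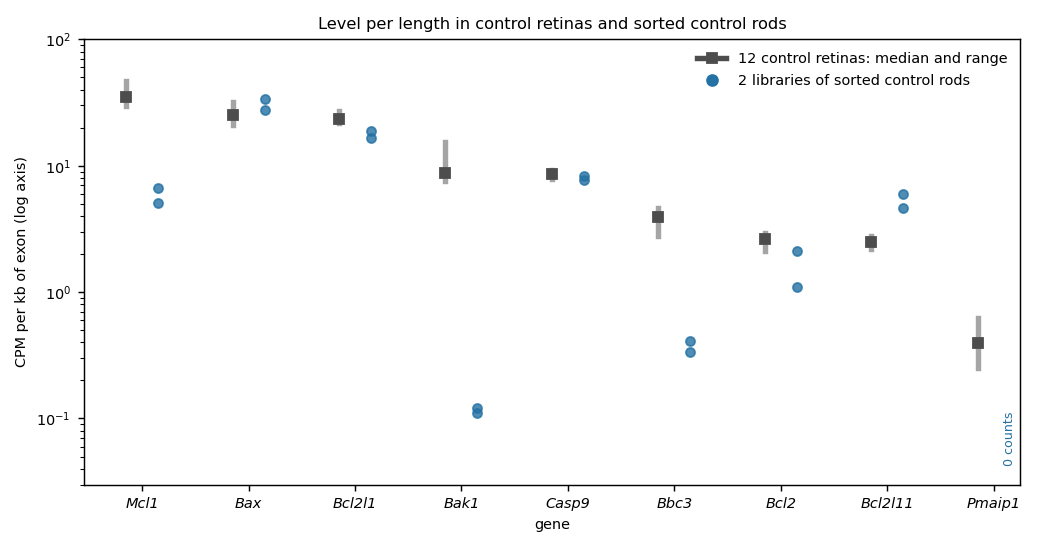
Level of each gene in CPM per kilobase of exon, on a log axis. Squares and bars give the median and the range of the 12 control retinas and circles the 2 libraries of sorted control rods. Bak1, Bbc3, Mcl1, Bcl2l1 and Bcl2 sit lower in both rod libraries than in any control retina, Bcl2l11 sits higher, and Pmaip1 had 0 counts in both.

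The control groups of the 4 retina experiments did not share 1 level of every gene. Bak1 had a mean of 33.0 ± 6.05 CPM (SD, n = 2) in the controls of UNC0642 and 19.8 ± 0.916 CPM (SD, n = 4) in those of DZNep, on the scale common to the 22 retina libraries. Bax had 42.0 ± 1.55 CPM (SD, n = 2) and 33.4 ± 0.740 CPM (SD, n = 4) in the same groups. Neither gene's values overlapped between those groups. The share of all genes that were apart between these control groups was not counted. Mcl1 had 108 ± 2.88 CPM (SD, n = 4) in the controls of DZNep and 149 ± 9.05 CPM (SD, n = 2) in those of UNC0642, again without overlap. The controls of UNC1999 were close to the latter in Mcl1, at 148 ± 14.7 CPM (SD, n = 3). Casp9 stayed close, with group means from 42.9 to 46.2 CPM. On the scale within each experiment, the controls of UNC0642 also had the highest summed microglia markers (546.9 to 774.1 CPM, against 180.7 to 601.3 CPM in the other control retinas). They had the highest summed gliosis markers too (2602 to 3181 CPM, against 626.9 to 1971 CPM). In the controls of UNC1999 these sums were 186.4 to 318.4 CPM and 1178 to 1971 CPM. The part of these markers in the levels of the genes was not tested. Each treatment is set against its own controls below.

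**Figure D2:**
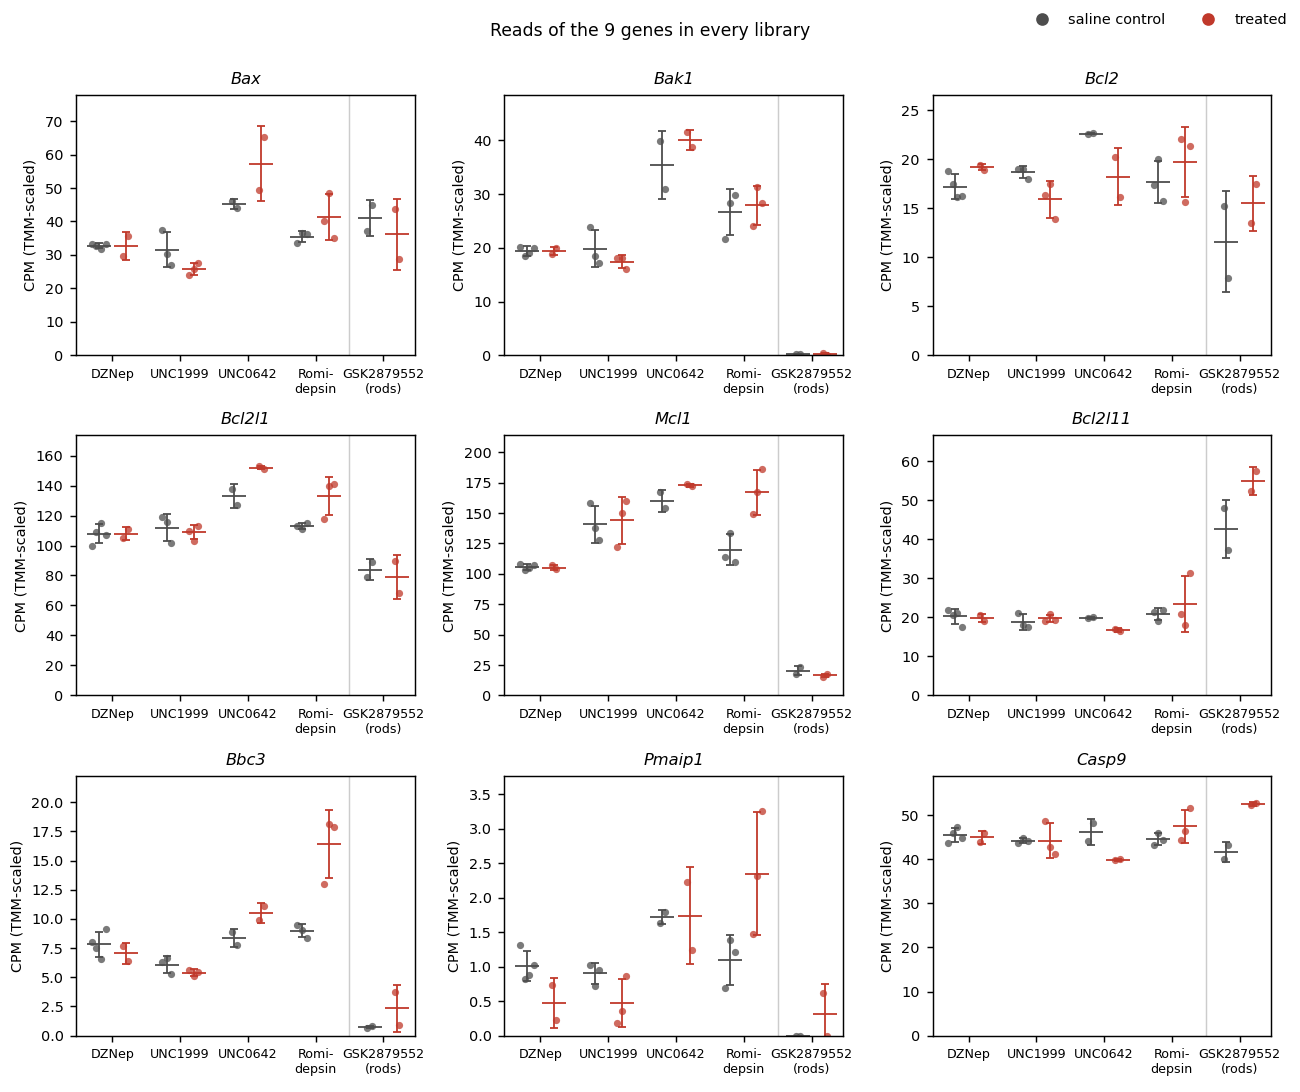
CPM of each of the 9 genes in each of the 26 libraries by experiment, grey for saline controls and red for treated libraries, with the group mean as a bar and the SD as whiskers. Each panel starts at 0, and the line sets off the sorted rods. In the Romidepsin experiment the 3 treated libraries of Bbc3, at 13.0 to 18.1 CPM, sit above the 3 controls, at 8.38 to 9.51 CPM.

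After Romidepsin all 9 genes had fold changes above 1, with the largest in the BH3-only genes Bbc3 and Pmaip1 and in the protective gene Mcl1, but none of the 9 passed an adjusted p of 0.05 by edgeR's quasi-likelihood test over 16049 genes. The test called 0.748% of those genes in either direction. In Bbc3, Mcl1, Pmaip1 and Bcl2l1 all 3 treated libraries lay above all 3 controls, 4 of the 9, where 13.5% of all genes tested did so. Bbc3, Mcl1 and Pmaip1 also had an unadjusted p under 0.05, as did 19.4% of all genes. The median log2 fold change was 0.22 over the 9 genes and −0.01 over all genes.

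Bbc3 (ENSMUSG00000002083, chromosome 7 from 16894965 to 16903554 in NCBIM37), a gene that p53 and FOXO factors are known to induce, had 9.51, 9.03 and 8.38 CPM in the 3 controls and 13.0, 18.1 and 17.9 CPM in the 3 libraries treated with Romidepsin. The groups were apart, with treated replicate 1 the nearest to the controls. The log2 fold change was 0.87 (standard error 0.176, 95% confidence interval 0.467 to 1.267), a 1.82-fold higher mean, and the adjusted p by edgeR's quasi-likelihood test was 0.0601. Its call depended on the fit. The adjusted p was 0.00206 by the likelihood ratio test, 0.00151 by DESeq2, 0.0233 with no filter on low counts and 0.000954 when all 22 retina libraries shared 1 quasi-likelihood fit. Leaving out treated replicate 1 gave a log2 fold change of 1.01 and an adjusted p of 0.0251, while leaving out any other library gave adjusted p from 0.0665 to 0.190 by the same edgeR test.

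Mcl1 (ENSMUSG00000038612, chromosome 3 from 95462643 to 95467099), whose short-lived protein binds Bak1 and Bim, had 114, 134 and 110 CPM in the controls and 149, 167 and 186 CPM after Romidepsin. Every treated library was above every control. The log2 fold change was 0.48 (standard error 0.130, 95% confidence interval 0.188 to 0.781) with an adjusted p of 0.0971 by edgeR's quasi-likelihood test. DESeq2 gave an adjusted p of 0.0326, the likelihood ratio test 0.0373 and the fit of 22 retina libraries 0.00364. Over all its alternatives the log2 fold change ran from 0.41 to 0.58.

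Pmaip1 (ENSMUSG00000024521, chromosome 18 from 66618258 to 66625204), a target of p53 and of ATF4 whose protein binds mainly Mcl1, had 10, 26 and 23 counts in the controls and 26, 42 and 70 counts after Romidepsin, or 0.685, 1.39 and 1.21 against 1.47, 2.32 and 3.26 CPM. The groups were apart by a small margin. The log2 fold change of 1.09 had a wide 95% confidence interval, 0.235 to 1.936, and an adjusted p of 0.163 by edgeR's quasi-likelihood test. Bcl2l1 (ENSMUSG00000007659, chromosome 2 from 152593052 to 152657464) had 113, 111 and 115 CPM in the controls and 118, 140 and 141 CPM in the treated libraries. Its groups were apart, with treated replicate 1 close to the controls, and the log2 fold change was 0.24 (adjusted p = 0.281 by the same test, and 0.0320 in the fit of 22 retina libraries). That fit was the only 1 of its 13 alternatives that passed.

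The remaining 5 genes overlapped between the groups. The effector Bax (ENSMUSG00000003873, chromosome 7 from 52717065 to 52722268) had 33.5 to 36.5 CPM in the controls and 34.9 to 48.5 CPM after Romidepsin (log2 fold change 0.22, 95% confidence interval −0.108 to 0.541). Its partner Bak1 (ENSMUSG00000057789, chromosome 17 from 27156755 to 27165954) had a log2 fold change of 0.06, Bcl2 (ENSMUSG00000057329, chromosome 1 from 108434755 to 108610851) 0.15, Bcl2l11 (ENSMUSG00000027381, chromosome 2 from 127951774 to 127988283) 0.18 and Casp9 (ENSMUSG00000028914, chromosome 4 from 141349527 to 141371891) 0.09. Bcl2l11 owed its mean to treated replicate 3, with 31.4 CPM against 20.9 and 18.0 CPM in the other treated libraries, and without it the log2 fold change was −0.09. Marker levels differed beside these values. Of 5 gliosis markers 3 were apart and higher after Romidepsin, and their sum was 690.5 to 1399 CPM in controls and 1321 to 1708 CPM in treated retinas. Of 10 microglia markers 5 were apart and lower (sum 367.5 to 601.3 CPM against 297.6 to 428.2 CPM), of 11 rod markers 7 were apart and higher (sum 15530 to 25320 CPM against 25310 to 33150 CPM), and 6 of 6 bipolar markers were apart and lower (sum 1936 to 2074 CPM against 1199 to 1494 CPM). The 6 Müller glia markers were likewise all apart and lower (sum 4294 to 5462 CPM against 2873 to 3615 CPM), as were 5 of 6 cone markers (sum 941.8 to 1564 CPM against 475.1 to 1036 CPM). The part of these cell types in the values of the 9 genes was not tested.

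**Figure D3:**
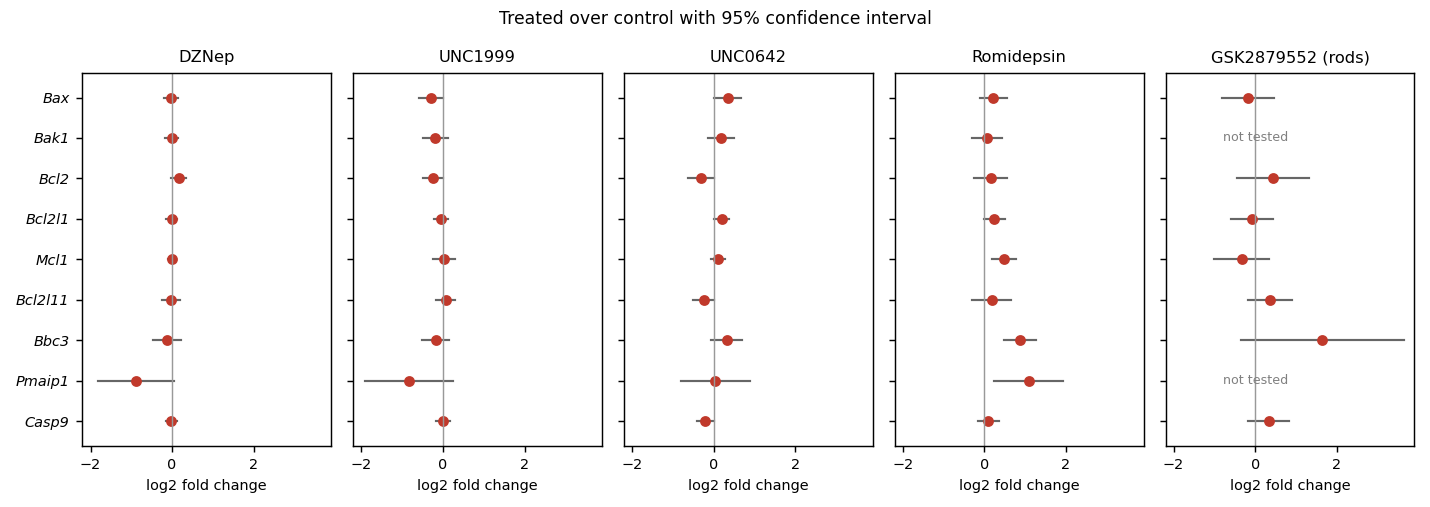
Log2 fold change of each gene, treated over control, with its 95% confidence interval, in 5 panels for the 5 experiments. After DZNep most points sit on 0 with short intervals, after Romidepsin the intervals of Mcl1, Bbc3 and Pmaip1 lie above 0, and in sorted rods the intervals are the widest; Bak1 and Pmaip1 were not tested there.

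After UNC0642 none of the 9 genes passed the test. Bax, Bcl2l1, Mcl1 and Bbc3 had both treated libraries above both controls, Bcl2, Bcl2l11 and Casp9 had both below, and Bak1 and Pmaip1 overlapped. With 2 libraries against 2, groups that do not overlap are common: 26.9% of the 16321 genes tested were apart and higher and 25.2% apart and lower. The test was edgeR's quasi-likelihood test, which called 0% of all genes here (2407 genes, 14.7%, had an unadjusted p under 0.05; DESeq2 called 152 genes and the likelihood ratio test 145). The adjusted p of the 9 genes ran from 0.328 to 0.967 by the quasi-likelihood test.

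The effector Bax had 46.2 and 44.1 CPM in the controls of UNC0642 and 49.4 and 65.3 CPM in the treated libraries. Treated replicate 2 set the size of the difference: the log2 fold change was 0.34 (95% confidence interval 0.011 to 0.671, unadjusted p = 0.0448 by edgeR) and was 0.13 without that library. Bak1 had 39.9 and 30.9 against 41.5 and 38.8 CPM and overlapped.

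Among the protective genes, Bcl2l1 had 138 and 127 CPM in controls and 153 and 151 CPM after UNC0642, a log2 fold change of 0.19 (95% confidence interval 0.019 to 0.368, unadjusted p = 0.0345 by edgeR). Bcl2 had 22.6 and 22.7 CPM in controls and 20.2 and 16.1 CPM after UNC0642, a log2 fold change of −0.31 (95% confidence interval −0.635 to 0.006). Mcl1 had 167 and 154 against 174 and 172 CPM. Thus Bcl2 and Bcl2l1, which encode proteins of the same protective kind, lay on opposite sides of their controls. The ratio of Bax to Bcl2 followed, with log2 values of 0.95 and 1.03 in controls and 1.29 and 2.01 in treated libraries. In the other experiments its mean log2 value moved by 0.06 after Romidepsin, −0.05 after UNC1999, −0.17 after DZNep and −0.69 in sorted rods. The mean log2 ratio of Bcl2l11 to Mcl1 moved by −0.36 after UNC0642 and −0.35 after Romidepsin. It moved by −0.02 after DZNep, 0.04 after UNC1999 and 0.69 in sorted rods. These ratios are given as values without a test.

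The BH3-only gene Bbc3 had 8.92 and 7.80 CPM in controls and 9.88 and 11.1 CPM after UNC0642 (log2 fold change 0.32, 95% confidence interval −0.062 to 0.704). Bcl2l11 had 19.7 and 20 against 17.1 and 16.4 CPM (log2 fold change −0.25), and Casp9 had 44.0 and 48.2 against 39.7 and 40.1 CPM (log2 fold change −0.21, unadjusted p = 0.0482 by edgeR). Both were lower in each treated library. Pmaip1 overlapped, with 40 and 33 counts in controls and 40 and 17 after UNC0642. Without treated replicate 1 its log2 fold change was −0.47 and without treated replicate 2 it was 0.38. Microglia markers were lower in this experiment in 6 of 10 cases (sum 546.9 to 774.1 CPM in controls and 319.6 to 496.9 CPM in treated libraries), and their part in these values was not tested.

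After DZNep none of the 9 genes passed the test, and 7 of them overlapped with their controls, while Bcl2 and Pmaip1 did not. The quasi-likelihood test of edgeR called 22.7% of 16477 genes and none of the 9, of which none had an unadjusted p under 0.05 either, against 36.5% of all genes. The median absolute log2 fold change was 0.02 over the 9 genes and 0.18 over all genes. For 5 of the genes the intervals were narrow: the 95% confidence interval of Mcl1 was −0.101 to 0.096, of Casp9 −0.145 to 0.109, of Bcl2l1 −0.138 to 0.129, of Bak1 −0.167 to 0.156 and of Bax −0.194 to 0.154 on the log2 scale. By these intervals, changes beyond 0.2 on the log2 scale were not covered for any of these 5 genes in the 6 libraries.

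Mcl1 had 108, 103, 105 and 107 CPM in the 4 controls and 107 and 104 CPM in the 2 libraries treated with DZNep. Casp9 had 43.6, 46.0, 47.3 and 44.9 against 43.9 and 46.0 CPM. In both genes the treated values fell within the range of the controls. Bax had 31.9 to 33.4 CPM in the controls, and its treated libraries lay on either side, at 29.7 and 35.7 CPM. Bcl2 was the only gene of the 9 with both treated libraries above all controls, at 19.4 and 18.9 CPM against 16.1 to 18.8 CPM (log2 fold change 0.16, adjusted p = 0.198 by edgeR's quasi-likelihood test), and 24.4% of all genes were apart and higher. Pmaip1 was the only gene of the 9 with both treated libraries below all controls (21.5% of all genes), with 25 and 3 counts, or 0.729 and 0.223 CPM, against 18 to 29 counts, or 0.828 to 1.32 CPM. Its log2 fold change was −0.88 (95% confidence interval −1.816 to 0.051, adjusted p = 0.156 by the same test), and it ran from −2.15 to −0.47 over its alternatives. Bbc3 at −0.13 and Bcl2l11 at −0.02 overlapped with their controls. In the same libraries 11 of 11 rod markers were called higher (sum 18390 to 30800 CPM in controls and 56910 to 58740 CPM after DZNep) and 6 of 6 Müller glia markers lower (sum 4726 to 5480 against 3788 to 4143 CPM). Of 6 bipolar markers 5 were called lower, and of 6 pigment epithelium markers 4 higher and 1 lower. The 3 lens markers summed to 0.573 to 1.06 CPM in controls. In the 2 treated libraries that sum ran from 0.642 to 54.4 CPM. The part of all these markers in the values of the 9 genes was not tested.

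After UNC1999, the other EZH2 inhibitor, 7 of the 9 genes had log2 fold changes below 0, and none was called by edgeR's quasi-likelihood test, which called 0.602% of 15775 genes. Bax was the only gene of the 9 with an unadjusted p under 0.05 (0.0458), against 23.6% of all genes tested. Bcl2 was the only gene of the 9 whose groups were apart, and it was lower after UNC1999, as 13.6% of all genes were; 13.9% were apart and higher. The median log2 fold change of the 9 genes was −0.18, against −0.002 over all genes.

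Bax had 37.4, 30.4 and 27.1 CPM in the controls of UNC1999 and 24, 25.8 and 27.5 CPM in the treated libraries. The highest treated library exceeded the lowest control by a small margin. The log2 fold change was −0.29 (standard error 0.123, 95% confidence interval −0.575 to −0.007, adjusted p = 0.203 by edgeR's quasi-likelihood test), and it was −0.16 without control replicate 1. Bak1 had a log2 fold change of −0.19, and both effectors had their highest value in control replicate 1.

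Bcl2 had 19.0, 19.0 and 18.0 CPM in the controls and 16.3, 17.5 and 13.9 CPM after UNC1999 (log2 fold change −0.23, 95% confidence interval −0.477 to 0.014, adjusted p = 0.235 by the same test). Bcl2l1 at −0.05 and Mcl1 at 0.03 overlapped with their controls. Mcl1 spread widely in both groups, from 128 to 158 CPM in controls and from 122 to 160 CPM after UNC1999. Bbc3 had 6.31, 6.66 and 5.29 CPM in controls and 5.65, 5.10 and 5.44 CPM in treated libraries, with overlap (log2 fold change −0.18, 95% confidence interval −0.503 to 0.149). Pmaip1 had 20 counts in each of the 3 controls and 3, 8 and 22 counts after UNC1999, a log2 fold change of −0.83 with an interval from −1.907 to 0.256 and overlap through treated replicate 3. Over its alternatives that value ran from −1.63, without treated replicate 3, to −0.52, without treated replicate 1. Bcl2l11 at 0.07 and Casp9 at 0.00 overlapped as well. Of 10 microglia markers 9 were apart and lower (sum 186.4 to 318.4 CPM in controls and 106.4 to 143.1 CPM in treated libraries), and 5 of 6 pigment epithelium markers were called higher. Their part in these values was not tested.

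Whether the treatments differed from each other was tested as the difference of their log2 fold changes, each against its own controls, in 1 edgeR quasi-likelihood fit of the 22 retina libraries over 17274 genes. Among 54 tests (9 genes in 6 pairs of treatments) 1 passed an adjusted p of 0.05. The change of Bbc3 was lower after UNC1999 than after Romidepsin (difference −1.05 on the log2 scale, standard error 0.212, 95% confidence interval −1.494 to −0.606, adjusted p = 0.00993), and 5.11% of all genes differed between this pair. It passed under each of its 14 alternatives, with adjusted p from 0.000843 to 0.0317 and differences from −1.19 to −0.96. The 2 experiments belong to different library series in the labels, which cannot be told apart from the compounds.

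The same difference between DZNep and Romidepsin was −1.004 (95% confidence interval −1.459 to −0.548, adjusted p = 0.0554 by the same fit, 0.0497 with RLE factors and 0.00473 without Romidepsin treated replicate 1), where 0.289% of all genes differed. This difference of Bbc3 passed under 3 of its 14 alternatives. Between UNC0642 and Romidepsin it was −0.55 (95% confidence interval −1.041 to −0.064, adjusted p = 0.331). Mcl1 gave differences from Romidepsin of −0.46 for UNC1999 (95% confidence interval −0.759 to −0.158, adjusted p = 0.0708), −0.49 for DZNep (−0.798 to −0.173, adjusted p = 0.142) and −0.38 for UNC0642 (−0.716 to −0.043, adjusted p = 0.332). Pmaip1 gave −1.92 for UNC1999 (−3.198 to −0.638, adjusted p = 0.0752) and −1.97 for DZNep (−3.287 to −0.661, adjusted p = 0.154). For UNC0642 the difference of Pmaip1 was −1.05 (−2.354 to 0.253, adjusted p = 0.525). All of these differences subtract the same Romidepsin libraries, so they are not independent of each other. The EZH2 inhibitors DZNep and UNC1999 were given at different doses and in different experiments, and none of the 9 genes passed between them, where 0.00579% of all genes did. None passed between DZNep and UNC0642 (0.0232% of all genes), between UNC1999 and UNC0642 (0.0116%) or between UNC0642 and Romidepsin (0.0174%) either.

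**Figure D4:**
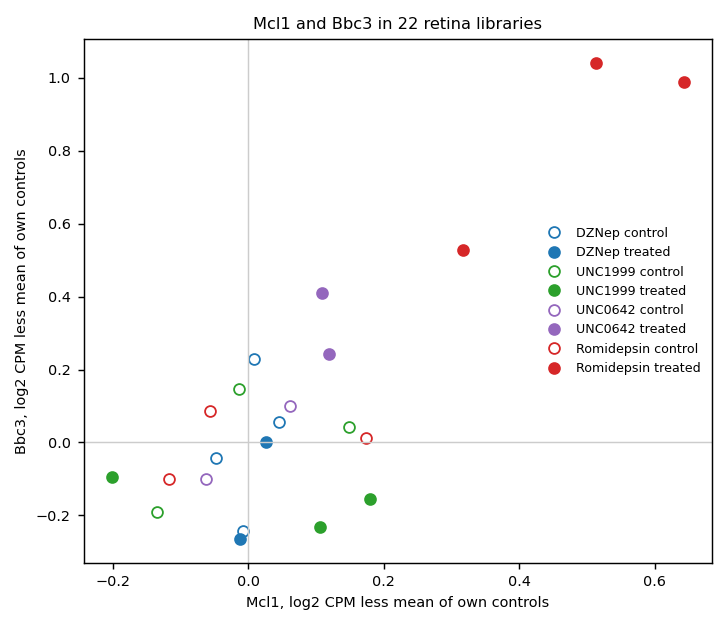
Log2 CPM of Mcl1 (x axis) and Bbc3 (y axis) in each of the 22 retina libraries, less the mean of the controls of its own experiment; open circles are controls and filled circles treated libraries. The 3 libraries treated with Romidepsin lie at the upper right, at 0.317 to 0.643 for Mcl1 and 0.528 to 1.04 for Bbc3.

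Bbc3 and Mcl1, a killer and a protector, had the closest course of any pair among the 9 genes. Over the 22 retina libraries, taken as log2 CPM less the mean of the own controls, their Pearson's r was 0.83, and the 3 Romidepsin libraries lay farthest out in both genes. Bcl2l1 and Bbc3 had an r of 0.81, Bcl2l1 and Mcl1 0.73 and the effectors Bax and Bak1 0.65. At the other end, Bax and Bcl2l11 had an r of −0.37. These values describe libraries that share treatments and control means, and carry no test.

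By the same measure over 17274 genes, the genes most like Mcl1 were Ptpn1 (r = 0.98) and Sbno2 (0.97), and those most like Bbc3 were Mtap7d1 (0.92) and Serinc2 (0.92). Bax was followed most closely by Mrps6 (0.94) and Fdx1l (0.93), Bcl2l1 by Wbscr16 (0.92) and Rtcd1 (0.91), Bak1 by Rnh1 (0.88) and Ssr4 (0.86), and Bcl2 by Abcc9 (0.88) and March8 (0.87). Pmaip1 was most like Tcam1 (0.88) and Serpina3n (0.87). Bcl2l11 (Wdr26 at 0.81, Lig4 at 0.79) and Casp9 (Folh1 at 0.79, Nqo1 at 0.77) had the lowest of these values, each over 22 libraries.

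Sorted rods of rd10 mice gave another profile of the 9 genes than whole retinas. Bak1, which was measured with 317 to 972 counts in every control retina, had 2 and 5 counts in the 2 control rod libraries (0.268 and 0.293 CPM, against 18.1 to 37.3 CPM in the 12 control retinas on their common scale). Mcl1 had 17.8 and 23.1 CPM in control rods and 104 to 163 CPM in control retinas, and Bbc3 0.669 and 0.820 CPM against 5.54 to 9.31 CPM. Bcl2l11 went the other way, with 47.9 and 37.2 CPM in control rods and 17.8 to 22.5 CPM in control retinas. Bcl2l1 (78.9 and 88.9 CPM against 103 to 129 CPM) and Bcl2 (15.2 and 7.90 CPM against 15.3 to 21.1 CPM) were lower in rods by a smaller margin. The ranges of Casp9 overlapped, with 40.1 and 43.3 CPM in rods and 41.1 to 48.1 CPM in retinas, as did those of Bax, with 37.2 and 44.9 CPM against 28.4 to 43.1 CPM. Pmaip1 had 0 counts in both control rod libraries, which allows up to 0.412 CPM in replicate 1 and 0.173 CPM in replicate 2 by 3 counts, and this floor covers counting error only.

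Set against all 14942 genes with a mean of at least 1 CPM in control retinas, whose median log2 ratio of rods over retinas was −0.48, Bak1 had a log2 ratio of −5.97, and 2.72% of genes had a lower one. The log2 ratio was −3.21 for Bbc3 (20.5% of genes lower), −2.63 for Mcl1 (25.9% lower), 0.23 for Bax (63.2% lower) and 1.09 for Bcl2l11 (82.7% lower), with 0.1 CPM added to each mean. Bcl2l1 (−0.44, 50.6% lower) and Bcl2 (−0.67, 47.1% lower) lay near the median of all genes. Their lower CPM in rods was thus not particular to them. Rod libraries were made with another kit, from sorted cells of another mouse line, and these cannot be told apart from the cell population, so no test was made. The sum of microglia markers was 28.89 to 44.15 CPM in control rods, and that of bipolar markers 451.4 to 638.9 CPM, against 180.7 to 774.1 CPM and 1427 to 2074 CPM in control retinas. Cone markers summed to 1939 to 3430 CPM in control rods and to 706.2 to 2055 CPM in control retinas, so they were not lower in the sorted cells.

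GSK2879552 in sorted rods gave no call among the 7 genes tested, by edgeR's quasi-likelihood test over 14478 genes, and the test called 0% of all genes (711 genes, 4.91%, had an unadjusted p under 0.05; DESeq2 called 43 genes and the likelihood ratio test 71). None of the 7 had an unadjusted p under 0.05. Bbc3, Bcl2l11 and Casp9 had both treated libraries above both controls, where 15.9% of all genes did so, and Mcl1 had both below, where 17.3% did so. Bak1 and Pmaip1 did not pass the filter on low counts.

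Bbc3 had 5 and 14 counts in the control rods and 72 and 9 counts after GSK2879552, or 0.669 and 0.820 against 3.74 and 0.908 CPM. The log2 fold change of 1.65 thus came from treated replicate 1, and its 95% confidence interval ran from −0.354 to 3.645 (adjusted p = 0.987 by edgeR's quasi-likelihood test). Pmaip1 had 12 counts in the same library and 0 in the other 3. The gene was not tested, and 0 counts in treated replicate 2 allow up to 0.309 CPM. Bak1 had 6 and 1 counts after GSK2879552.

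Bcl2l11 had 47.9 and 37.2 CPM in control rods and 52.4 and 57.4 CPM in treated rods (log2 fold change 0.37, 95% confidence interval −0.170 to 0.911). Casp9 had 40.1 and 43.3 against 52.2 and 52.8 CPM (0.33, −0.174 to 0.834), and Mcl1 17.8 and 23.1 against 15.4 and 17.3 CPM (−0.33, −1.001 to 0.342). In these 3 genes the groups were apart while every interval held 0. Bax (log2 fold change −0.18), Bcl2 (0.43) and Bcl2l1 (−0.09) overlapped, and Bcl2 spread from 7.90 to 15.2 CPM between the controls alone. Beside these values, 5 of 6 cone markers were apart and lower after GSK2879552 (sum 1939 to 3430 CPM in controls and 1224 to 1695 CPM in treated rods) and 3 of 5 gliosis markers apart and lower (352.8 to 456.9 against 239.5 to 258.9 CPM). Of 10 microglia markers 4 were apart and lower (28.89 to 44.15 against 25.84 to 33.07 CPM), and 4 of 6 Müller glia markers were apart and higher (100.6 to 151.8 against 164.0 to 194.5 CPM). Their part in the values of the 9 genes was not tested.

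The wider pathway was read in a list of 84 other apoptosis genes. After DZNep, 27 of 75 tested genes were called by edgeR's quasi-likelihood test, 9 higher and 18 lower, where 12.9% of all genes were called higher and 9.72% lower, and the median log2 fold change of the list was −0.003. The part of the list called higher was near the share over all genes, and the part called lower was above it. Of the higher ones with the smallest p, Xiap, which encodes an inhibitor of caspases, had 252 ± 9.43 CPM (SD, n = 4) in controls, whereas the DZNep libraries had 384 ± 30.6 CPM (SD, n = 2), and the adjusted p was 0.000639 at a log2 fold change of 0.61. Atf4 (0.39), Ddit3 (0.34) and Foxo3 (0.24), which encode factors that induce BH3-only genes, and the p53 target Sesn1 (0.34) were called higher too. Members of the same groups were also called lower: of the 8 inducers of BH3-only genes 4 were called higher and 2 lower (Egr1, and Foxo1 at −0.23), and of the 16 genes of p53 and its targets 2 higher and 3 lower (Trp53 at −0.47, Phlda3 at −0.57 and Zmat3 at −0.26). Egr1, an immediate-early gene that is among those inducers, had 160 ± 25.1 CPM (SD, n = 4) in controls, whereas the DZNep libraries had 46.5 ± 0.825 CPM (SD, n = 2), and the adjusted p was 0.000289 at a log2 fold change of −1.78. The inflammatory caspases Casp1 (−2.67) and Casp12 (−1.43) and the calpain subunits Capn2 (−0.32) and Capns1 (−0.31) were also called lower. Casp1 and Casp12 were at 1.69 ± 0.568 and 1.5 ± 0.152 CPM (SD, n = 4) in controls. All 10 had groups apart. The count of 27 was 6 without treated replicate 1, 15 without control replicate 2 and 8 in the fit of 22 retina libraries. Without treated replicate 1, Casp1, Casp12, Capn2 and Ddit3 were no longer called (adjusted p = 0.0905, 0.0562, 0.0928 and 0.141 by edgeR's quasi-likelihood test), and in the fit of 22 retinas Casp12, Capn2, Capns1, Ddit3 and Foxo3 were not (0.0990, 0.180, 0.179, 0.233 and 0.121). The microglia markers, 2 of 10 of which were called lower, summed to 180.7 to 383.3 CPM in controls and 143.0 to 160.7 CPM after DZNep, and their part in the fall of Casp1 was not tested.

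After Romidepsin, 2 of 77 tested genes of the list were called, both higher, where 0.573% of all genes were called higher and 0.174% lower. Egr1 had a mean of 114 ± 15.6 CPM in controls and 277 ± 71.2 CPM in treated libraries (SD, n = 3 each); its log2 fold change was 1.28, with a standard error of 0.203 and an adjusted p of 0.0361 by edgeR's quasi-likelihood test. Bmf, a BH3-only gene like Bbc3, had 26.7 ± 3.62 CPM in controls and 54.7 ± 10.3 CPM in treated libraries (SD, n = 3 each), and its log2 fold change of 1.04 had a standard error of 0.171 and an adjusted p of 0.0411. In both genes the groups were apart. Both calls were lost when any 1 of the 3 controls or treated replicate 3 was left out, with adjusted p from 0.0638 to 0.154 by the same test, and the list held 8 called genes without treated replicate 1. Egr1 thus lay below its controls after DZNep and above them after Romidepsin, while Bmf after DZNep had a log2 fold change of 0.60 (adjusted p = 0.0514); the differences between the treatments were not tested for these genes.

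Of the 8 listed inducers of BH3-only genes, 5 had an unadjusted p under 0.05 after Romidepsin, as did 19.4% of all genes, and the median log2 fold change was 0.53, against −0.01 over all genes; Egr1 alone passed the adjustment over all genes. After UNC0642, 4 of the 8 had an unadjusted p under 0.05 (14.7% of all genes), with a median of 0.32 and no call. The median of the inducers was 0.20 after DZNep, −0.11 after UNC1999 and 0.09 in sorted rods. Other groups of the list had medians below 0 after Romidepsin. They were −0.33 for caspases, −0.26 for caspase inhibitors, −0.22 for Mcl1 turnover, −0.08 for mitochondrial release and −0.065 for calpain and PARP genes. The remaining groups were above 0. No gene of the list was called after UNC0642 (79 tested, 20 with an unadjusted p under 0.05, where 14.7% of all genes had one), after UNC1999 (74 tested, 17 unadjusted, where 23.6% of all genes had such a p and 0.501% were called higher and 0.101% lower) or in sorted rods after GSK2879552 (62 tested, 2 unadjusted, against 4.91% of all genes) by edgeR's quasi-likelihood test. For UNC1999, DESeq2 called 7 of the list and the likelihood ratio test 9, and without control replicate 3 the quasi-likelihood test called 17.

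The counts of 3 of the 9 genes may be affected by a neighbour, through reads gained or lost where exons overlap. Exons of Bak1 overlap those of Ggnbp1, exons of Bcl2 those of D630008O14Rik and exons of Casp9 those of Cela2a, each on the other strand, and whether the counting used strand is not given in the sources used here. The mean count over all libraries was 422.2 for Bak1 and 73.9 for Ggnbp1, 348.1 for Bcl2 and 4.6 for D630008O14Rik, and 881.7 for Casp9 and 0.0 for Cela2a.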

How the data were processed

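RNA-seq of 22 whole retinas and 4 libraries of sorted rods was used. The authors removed adapters with BBDuk, mapped the reads with HISAT2 2.2.1 to the build NCBIM37 and made counts per Ensembl gene with HTSeq 0.11.2; the deposited values are these raw read counts. GENCODE M1, on that build, gave symbols and positions to 37205 of 37991 genes. Promoters and motif shares came from RefSeq on GRCm38.p6.

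Within each experiment, genes were filtered with filterByExpr and scaled with TMM in edgeR 4.0.16 (R 4.3.3), and treated and control libraries were compared by the quasi-likelihood F test in place of the authors' likelihood ratio test, with Benjamini-Hochberg adjustment over all genes tested; calls are at an adjusted p under 0.05. Differences between treatments were contrasts in 1 fit of 22 retinas. Confidence intervals are at 95%. Within each group, no library was a copy of another; other pairs were not compared. Tests were checked on simulated data.

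The 9 genes, the list of 84 and the tests were chosen with earlier results of these data known. Named were the 9 genes, up to 5 higher and 5 lower called genes of the list with the smallest p, and the 2 genes most like each of the 9 by Pearson's r of log2 CPM (prior count 2) over the 22 retinas; other genes (Bmf after DZNep, Foxo1, Trp53, Phlda3, Zmat3 and the overlapping neighbours) were named after their values were seen. A count of 3 was taken as the floor, 0.0825 to 0.412 CPM by library. Tried in place of these were DESeq2 1.42.0, the likelihood ratio test, RLE factors, no filter, at least 10 counts in every library, a replicate block, an absolute log2 fold change above 1 as well, 1 fit of the 22 retinas, leaving out each library, the longest transcript as length, levels without TMM factors and prior count 0.5.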

Additional observations from a re-analysis of the deposited data

Results flagged for a closer look

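The difference in the change of Bbc3 between the UNC1999 and the Romidepsin experiment was marked because the same contrast, treated less own control, differed between these treatments by a test of the difference itself. The log2 fold change was −0.18 after UNC1999 and 0.87 after Romidepsin in the separate fits, and the difference in the fit of 22 retina libraries was −1.05 (standard error 0.212, adjusted p = 0.00993 by edgeR's quasi-likelihood test). All 3 libraries treated with Romidepsin lay above their controls, and the 3 treated with UNC1999 overlapped with theirs. Single libraries were tested as outliers only in the 4 controls of DZNep, where none was marked in any of the 9 genes; groups of 2 or 3 libraries were not tested.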

How the results depend on the processing

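The 9 genes gave no call in DZNep, UNC1999, UNC0642 or sorted rods under any alternative. After Romidepsin the likelihood ratio test and DESeq2 called 2 of the 9, no filter 1, and the fit of 22 retinas 3; leaving out a library gave 0 to 1. Members that differed between DZNep and Romidepsin numbered 1 by the likelihood ratio test and 1 with RLE factors (0 to 2 without a library), and between UNC1999 and Romidepsin 3 by the likelihood ratio test (1 to 4 without a library; 4 without Romidepsin treated replicate 1 or UNC1999 control replicate 3).

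The likelihood ratio test called 1641 genes after UNC1999, 145 after UNC0642, 1185 after Romidepsin and 71 in rods, and of the pathway list 9, 2 and 8 in the first 3. DESeq2 called 1459, 152, 1074 and 43 genes, and 7, 2 and 7 of the list. No filter gave 1024, 1052, 670 and 186 genes, and 5, 10 and 5 of the list. The fit of 22 retinas called 1333 genes after DZNep, 1445 after UNC1999, 5 after UNC0642 and 2987 after Romidepsin, and 8, 11, 1 and 16 of the list. An absolute log2 fold change above 1 as well left 281 genes and 4 of the list after DZNep, and 58 genes after UNC1999. Without 1 library the calls ran from 1082 to 4537 genes after DZNep (list 6 to 28), 4 to 2707 after UNC1999 (list 0 to 17), 0 to 148 after UNC0642, 0 to 508 after Romidepsin (list 0 to 8) and 0 to 210 in rods. The lowest and highest gene counts came without DZNep treated replicate 1 and control replicate 1, UNC1999 control replicates 2 and 3, UNC0642 treated replicate 2 and control replicate 1, Romidepsin control replicate 2, control replicate 3 or treated replicate 3 (0 genes each) and treated replicate 1, and rods control replicate 1 or 2 (0 genes each) and treated replicate 2.

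Correlations of same-numbered libraries ran from −0.322 to 0.34. They were of both signs after UNC1999 and Romidepsin and below 0 after DZNep and in rods. In UNC0642 the same-numbered pairs correlated at 0.269. With 2 libraries in each group, the crossed value of −0.269 is the same number with its sign turned and adds nothing. It is a hint from the data only, and the labels name no shared animal or day, so the libraries were not taken as paired. The replicate block called 1415 genes after DZNep, 30 after UNC1999, 589 after UNC0642 and 3 in rods, and of the list 7 after DZNep, 6 after UNC0642 and 0 after Romidepsin; it called none of the 9 genes, and the crossed pairing of the rods, chosen after seeing the data, called none either.

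Signs turned in log2 fold changes near 0. After DZNep, Bak1 was 0.006 with the block and 0.0059 in the fit of 22 retinas, Bcl2l1 0.0403 and 0.0066, Mcl1 0.0068 in that fit and Casp9 0.0058 with the block. Casp9 after UNC1999 was 0.0022 by DESeq2, 0.0032 with RLE factors and 0.004 in the fit of 22 retinas. Without 1 library, the values after DZNep ran from −0.1459 to 0.1182 in Bax, −0.0364 to 0.0326 in Bak1, −0.0411 to 0.0357 in Bcl2l1, −0.0218 to 0.0157 in Mcl1, −0.0898 to 0.0237 in Bcl2l11 and −0.0484 to 0.0179 in Casp9. After UNC1999 they ran from −0.0513 to 0.1335 in Mcl1 and −0.0734 to 0.0499 in Casp9, after UNC0642 from −0.4683 to 0.3815 in Pmaip1, after Romidepsin from −0.0617 to 0.161 in Bak1 and −0.0888 to 0.3371 in Bcl2l11, and in rods from −0.5144 to 0.0864 in Bax and −0.2889 to 0.0936 in Bcl2l1. Per kb of the longest transcript the levels were 32.4 CPM for Bax, 46.0 for Bcl2l1, 11.6 for Casp9 and 3.95 for Bcl2l11, which put Bcl2l1 above Mcl1. The cause of these shifts was not tested.

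Of 399 values without 1 library, 351 kept their direction and their side of the threshold, as did 366 of 398 under the other alternatives. The precision is limited by groups of 2 to 4 libraries and by the few counts of Pmaip1 in all libraries and of Bbc3 and Bak1 in rods.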
